A study of Mus musculus with 18 samples.

Results

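The genes described are 31 targets and regulators of the transcription factor p53, taken by symbol from a list of such genes and found among 24445 gene symbols of the deposited expression table. They comprise 6 genes of regulation and feedback (Trp53, Mdm2, Mdm4, Ccng1, Cdkn2aip and Zmat3), 12 of apoptosis (Bax, Bbc3, Pmaip1, Apaf1, Fas, Tnfrsf10b, Perp, Ei24, Eda2r, Aen, Trp53inp1 and Phlda3), 6 of arrest and growth control (Btg2, Plk2, Plk3, Psrc1, Ckap2 and Gdf15) and 7 of repair and metabolism (Polk, Rrm2b, Sesn1, Sesn2, Ddit4, Ephx1 and Dcxr). Each gene was read from 1 RefSeq transcript, the one with the highest mean level, in FPKM, a read level scaled to transcript length and library depth. All 31 were among the 12599 symbols that reached at least 1 FPKM in at least 2 libraries and were tested. The 6 genes of regulation and feedback include Trp53 itself, Mdm4 and Cdkn2aip, which act on p53 rather than only below it.

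RNA had been sequenced from primary fibroblasts of mouse tail tips, taken from animals 2 months old and used at passage 5. The Pro/Pro;Cas9/+ cells are homozygous for the Lmna allele of the progeria mouse and carry a Cas9 transgene, and are called homozygous Cas9 cells. The +/+;Cas9/+ cells carry Cas9 on a wild-type Lmna background, and the Pro/+; +/+ cells are heterozygous for the progeria allele and have no Cas9. Cells of each of 2 mice per genotype received a lentivirus with an mCherry reporter and either gMock, a guide RNA without a genomic match, or gLmna-1 or gLmna-2, both directed at Lmna. This gave 9 groups of 2 libraries, 18 libraries in all, in which the mouse is the replicate. All groups, the gMock controls included, had been through the lentiviral transduction in 4 µg/ml polybrene. More than 80% of the cells were mCherry-positive and none were sorted or selected, so any group may still hold cells without a guide. The labels do not give the promoter that drives Cas9, and the name of the second heterozygous mouse does not say whether it stands for 1 animal or a pool.

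The transcription factor p53 is kept low by Mdm2, the ubiquitin ligase that marks it for degradation, and Mdm2 is itself switched on by p53, which closes a feedback loop. DNA breaks, oncogene signalling and other stresses release p53 from this control, and it then binds paired half-sites near its target genes. In fibroblasts the response is best known for cell cycle arrest and senescence, and several of its targets promote cell death or DNA repair. Much of this control acts on the p53 protein, so the mRNA of Trp53 need not follow the activity of the factor.

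Library depth was 22424364 to 42622015 reads, worked out from the smallest steps between FPKM values, and single members were covered by 27 to 31627 reads per library. Fibroblast markers such as the fibrillar collagens summed to 7005 to 9317 FPKM. Of the keratinocyte markers Krt5, Krt14 and Dsg3 stayed under 0.05 FPKM in all 18 libraries, as did the muscle markers Myod1, Myf5 and Pax7. The 7 macrophage markers summed to 65.5 to 1487 FPKM. In this bulk RNA, a smaller number of cells of a type and less RNA per cell cannot be told apart. The gLmna-1 library of the second homozygous mouse stood apart from its own mouse. The SD over genes of its log2 difference was 0.276 to its nearest library, gLmna-2 of the first heterozygous mouse, against 0.461 and 0.508 to the other libraries of its mouse. Ifi202b, an interferon-inducible gene listed at 0 in the first homozygous mouse, was at 11.6 FPKM in that library, at 30.6 and 22.8 in the other 2 of its mouse and at 12.3 in the nearest library. Differences of members that passed, or that the second homozygous mouse set, are given with and without this gLmna-1 library. Fits without it rest on the first mouse alone for gLmna-1 in homozygous Cas9 cells. Of the 18 libraries 14 were nearest to a library of their own mouse. In the first homozygous mouse gMock and gLmna-1 were nearest to the same guides of the first heterozygous mouse, at 0.237 and 0.276. Their lowest values within their own mouse were 0.297 and 0.305. Lmna, the gene the guides are directed at, was at 195.7 to 381.4 FPKM in all libraries and passed in no comparison. With gLmna-1 against gMock in homozygous Cas9 cells it was at −0.37 (SE 0.17, adjusted p = 0.29).

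The targets spanned a wide range of levels. By median over the 18 libraries, Ephx1, a detoxifying epoxide hydrolase, was the highest at 208 FPKM, followed by Ccng1 (194), Bax (156), Phlda3 (146) and Mdm2 (85.8). The lowest medians were those of Gdf15 (2.42), Rrm2b (2.96), Cdkn2aip (3.49) and Perp (3.63). The members also differed in how far they moved. Gdf15, a secreted stress cytokine, ranged from 0.622 to 15.7 FPKM and had an SD over the 18 libraries of 1.15 on the log2 scale, above 99.5% of all tested genes. Perp (0.80), Ddit4 (0.75), Pmaip1 (0.75), Plk3 (0.62) and Btg2 (0.56) followed. Bax and Trp53 were among the steadiest members, with an SD of 0.12 and 0.14. Of the 31 members, 21 had an SD above the median of all tested genes, which was 0.18.

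**Figure D1:**
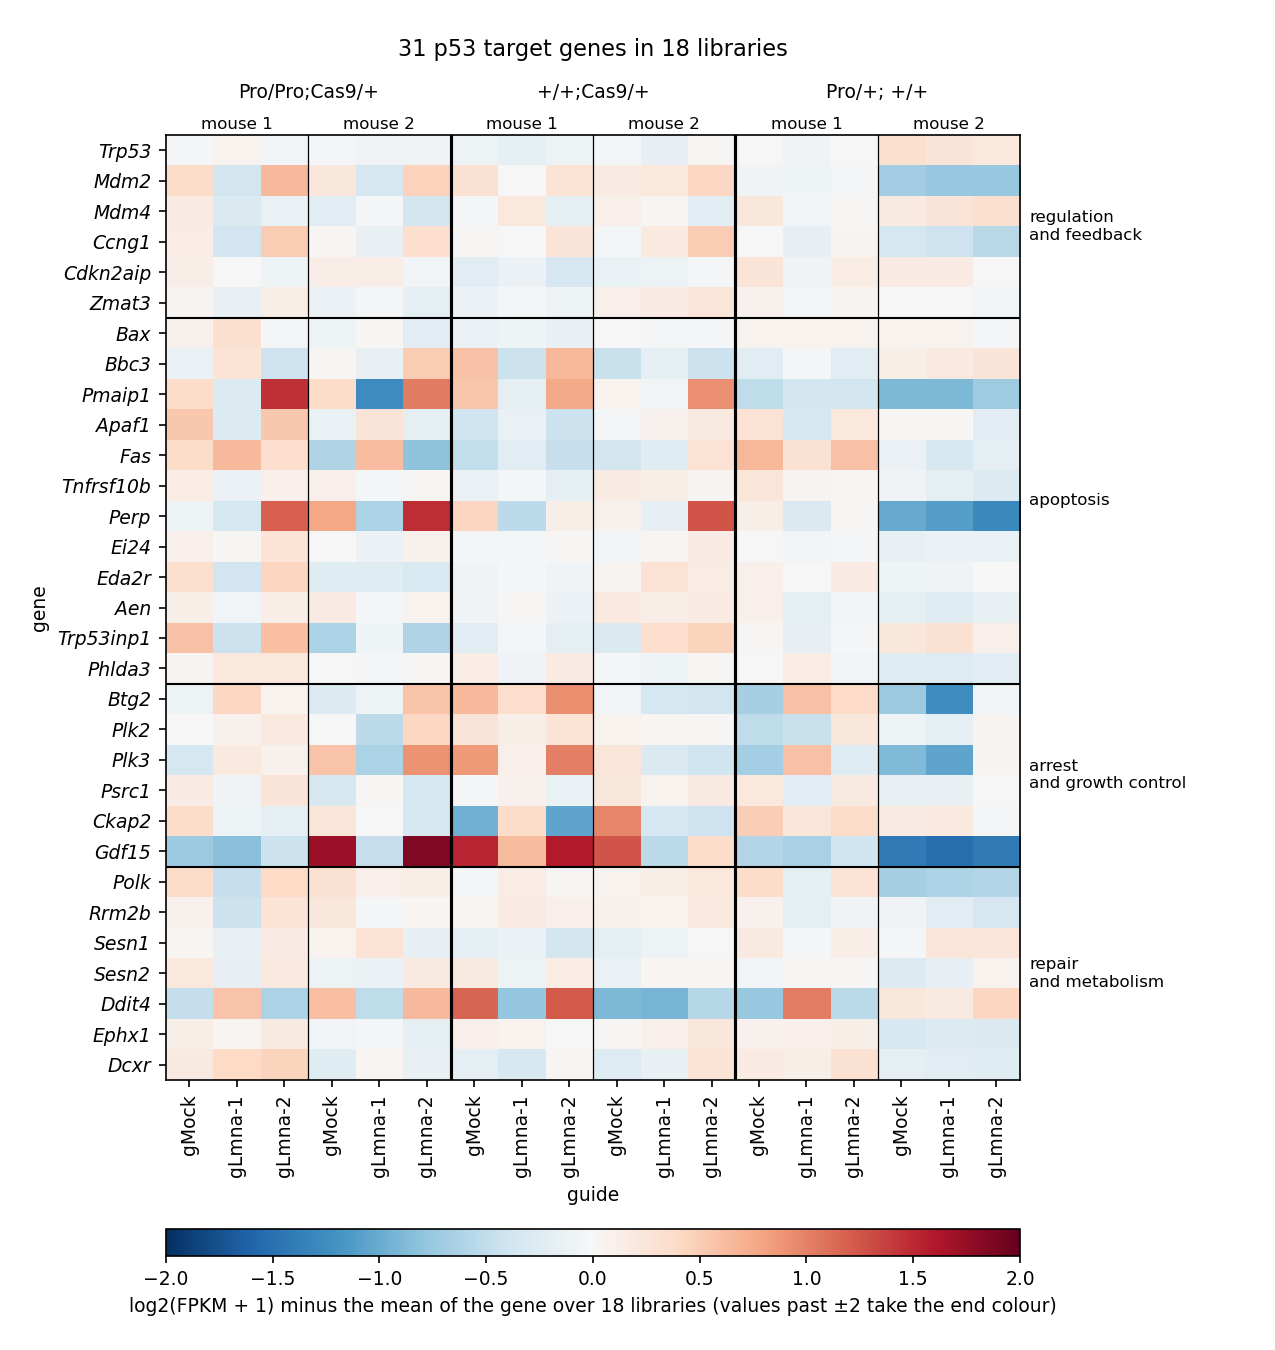
Level of each of the 31 genes (rows, grouped by role) in each of the 18 libraries (columns, grouped by genotype and mouse), as log2(FPKM + 1) minus the mean of the gene over the 18 libraries. Mdm2, Pmaip1 and Perp are high with gLmna-2 and low with gLmna-1 in both homozygous Cas9 mice, and Gdf15 and Ddit4 change from library to library.

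Between the 2 Lmna guides 5 members differed in homozygous Cas9 cells, and the direction was not shared by all. Mdm2, Pmaip1, Ccng1 and Perp were higher with gLmna-2 than with gLmna-1, and Bax was lower. These were 5 of 31 members, or 4 higher and 1 lower, where 9.95% of all 12599 tested genes passed in this comparison, 6.92% higher and 3.02% lower. The members' median log2 difference was 0.14, beside 0.06 over all tested genes. Positive differences were found for 19 of the 31, beside 60.3% of all tested genes. By role, 2 of 6 genes of regulation and feedback were higher. Of the 12 apoptosis genes 2 were higher and 1 lower. None of the 6 arrest genes or the 7 repair genes passed, with 2 and 3 of them at an unadjusted p under 0.05. Of all tested genes 25.2% had such a p. Limma voom on the recovered reads called 6 members here, and 1308 of all 12599 tested genes.

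**Figure D2:**
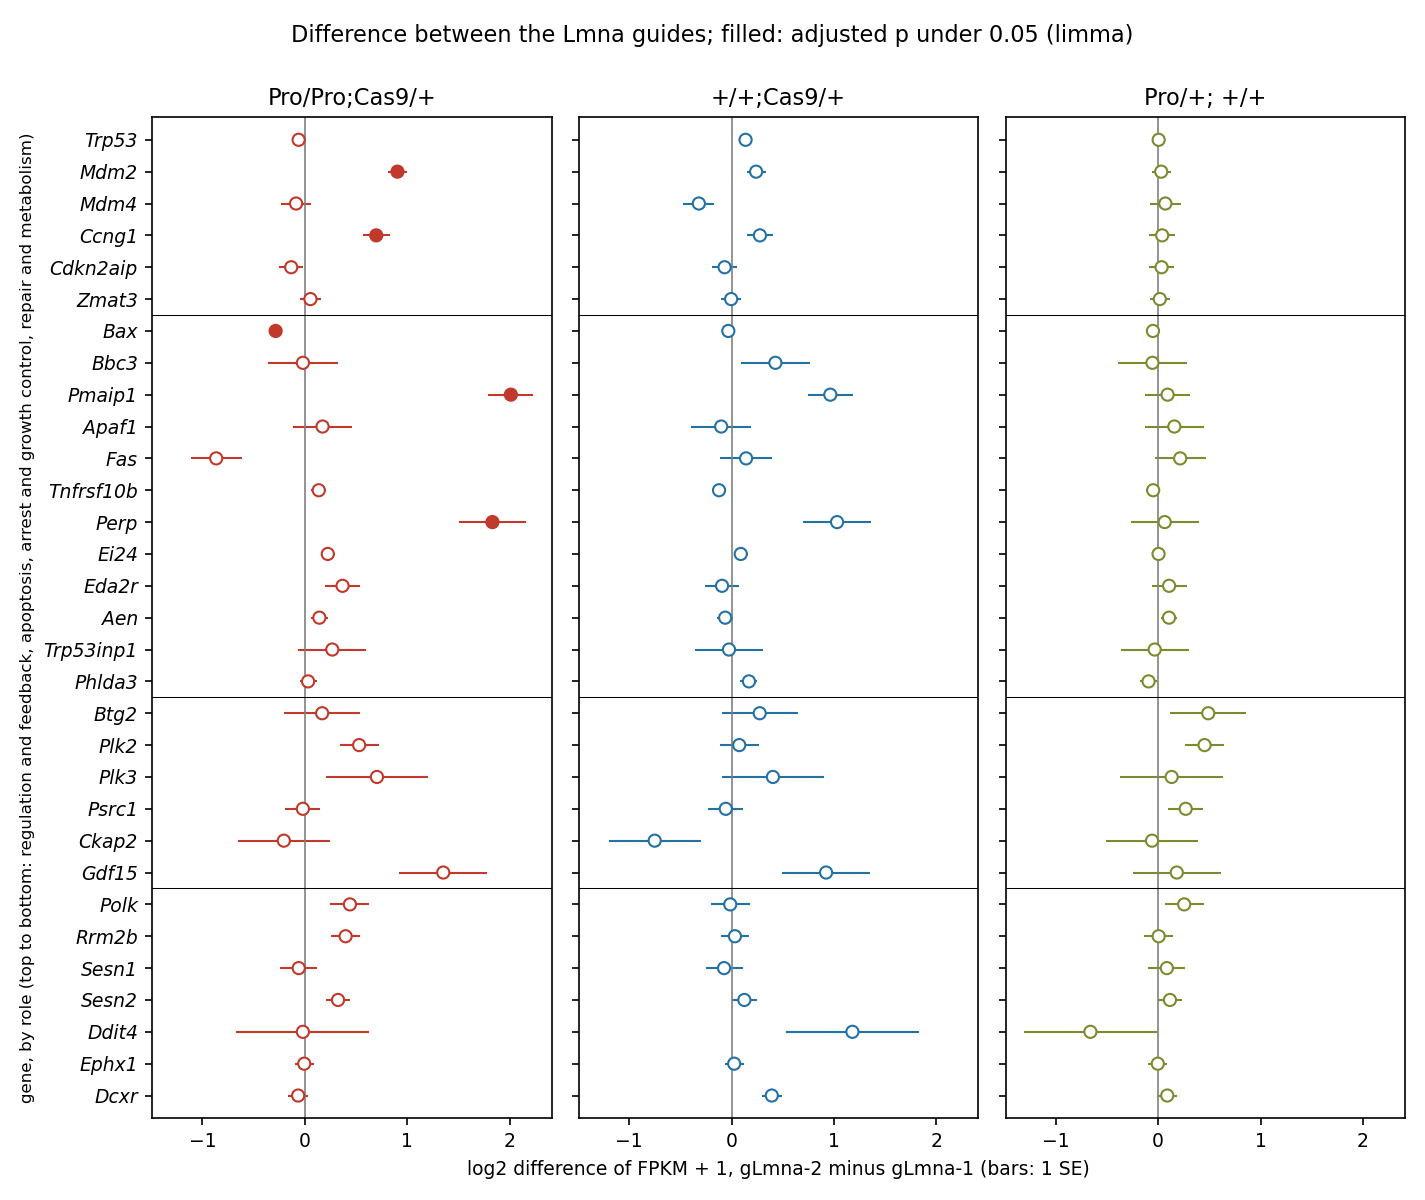
Log2 difference of FPKM + 1 between gLmna-2 and gLmna-1 for each of the 31 genes, with 1 SE, in the 3 genotypes; filled points have an adjusted p under 0.05. The filled points are Mdm2, Ccng1, Pmaip1 and Perp above 0 and Bax below 0, all in Pro/Pro;Cas9/+, and the Pro/+; +/+ points of these 5 genes lie near 0.

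Against gMock fewer members moved. With gLmna-1 in homozygous Cas9 cells 1 of 31 members, Mdm2, fell, where 0.976% of all genes passed. An unadjusted p under 0.05 was found for 12 of 31 members, beside 18% of all genes. The members' median log2 difference from gMock was −0.18, beside −0.03 over all genes. With gLmna-2 in these cells no member passed the limma test, where 0.357% of all genes did. There 4 members had an unadjusted p under 0.05, beside 10.1% of all genes, and voom called 0. Both guides were set against the same 2 gMock libraries, so these comparisons are not independent of each other.

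Trp53, which encodes p53, was steady. In homozygous Cas9 cells of mouse 1 and mouse 2 it was at 43.0 and 42.3 FPKM with gMock, at 45.8 and 41.5 with gLmna-1, and at 41.9 and 41.6 with gLmna-2. Wild-type Cas9 cells had 40.7 and 42.8, 38.1 and 38.7, and 40.3 and 44.5 FPKM for the guides in that order. Trp53 in heterozygous cells was at 43.9 and 54.7, at 41.5 and 52.4, and at 43.1 and 50.7. The second heterozygous mouse was the highest with every guide, and the 2 wild-type libraries with gLmna-1 were the lowest of all 18. The log2 differences between guides lay between −0.12 and 0.14, and the smallest adjusted p was 0.63. Trp53 lies on chromosome 11, 69580359 to 69591873 (mm10, plus strand). Its first exon held 0.488 to 3.16 FPKM, while the longest 3′ part held 56.2 to 81.4.

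Mdm2, the ubiquitin ligase of the feedback loop, moved with the guide in homozygous Cas9 cells. It was at 103.9 and 94.6 FPKM with gMock, at 62.4 and 63.5 with gLmna-1, and at 127 and 111 with gLmna-2. The 3 groups did not overlap, and both mice had the same order. For this gene and those below, how many of all tested genes did the same was not counted. Mdm2 was higher with gLmna-2 than with gLmna-1 by 0.90 on the log2 scale (SE 0.092, adjusted p = 0.003), which was 2.04-fold in mouse 1 and 1.74-fold in mouse 2. Against gMock it was at −0.65 with gLmna-1 (SE 0.092, adjusted p = 0.027) and at 0.26 with gLmna-2 (SE 0.092, adjusted p = 0.35). Without the gLmna-1 library that stood apart, Mdm2 was at 0.999 between the guides and at −0.743 with gLmna-1 against gMock. Without gMock of mouse 2 the adjusted p of the fall with gLmna-1 was 0.29, without gMock of mouse 1 it was 0.056, and without gLmna-1 of mouse 2, the library that stood apart, it was 0.051. The difference between the guides kept an adjusted p of at most 0.037 whichever of the 6 homozygous libraries was left out.

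Mdm2 in wild-type Cas9 cells was at 99.5 and 90.3 FPKM with gMock, at 81.2 and 93.3 with gLmna-1, and at 98.1 and 108 with gLmna-2. Both gLmna-2 values were above both gLmna-1 values, and gMock overlapped each. Between the guides the difference was 0.24 (SE 0.092, adjusted p = 0.57). In the heterozygous cells Mdm2 was at 76.5 and 49.6, at 75.9 and 47.4, and at 79.0 and 47.5, so that there the 2 mice differed more than the guides. The guides differed by 0.03 in those cells (SE 0.092, adjusted p = 1.0). In every mouse with Cas9 Mdm2 was higher with gLmna-2 than with gLmna-1, by 1.16-fold to 2.04-fold. The heterozygous mice without Cas9 were at 1.04-fold and 1.00-fold.

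**Figure D3:**
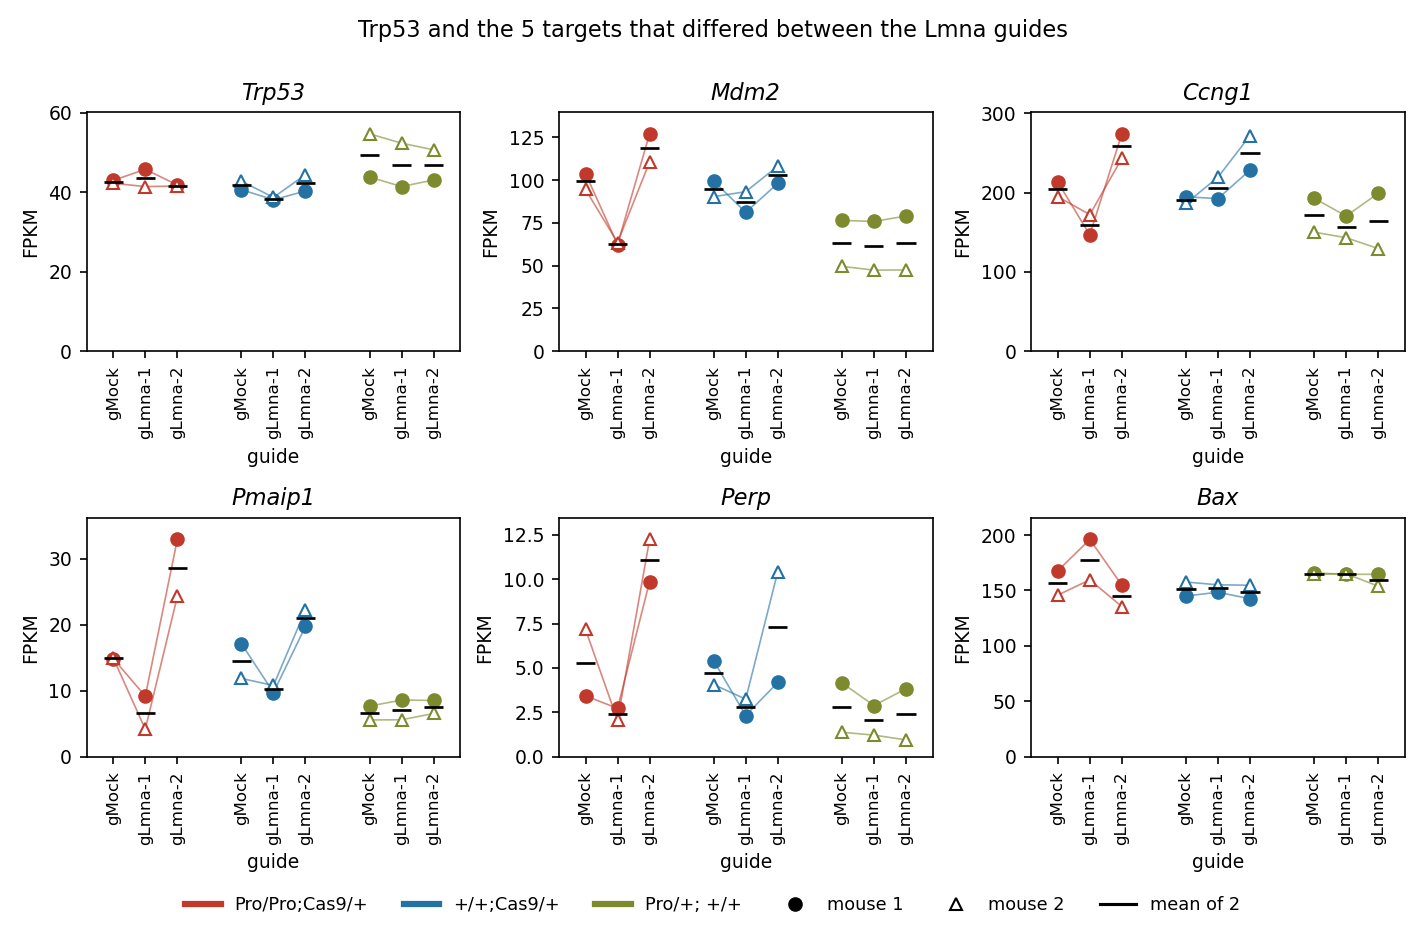
Level in FPKM (linear axis from 0) of Trp53, Mdm2, Ccng1, Pmaip1, Perp and Bax in every library, by guide and genotype; points are mice, lines join the libraries of 1 mouse, and bars are the means of 2 mice. In Pro/Pro;Cas9/+ cells Mdm2 is near 63 FPKM with gLmna-1 and at 111 and 127 with gLmna-2, while Trp53 stays near 42 to 46.

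The deposited table lists transcripts by part, which allowed Mdm2 to be followed along its length (chromosome 10, 117688875 to 117710758, minus strand, mm10). Mdm2 has a first promoter before exon 1 and a second one in the first intron, which is the one known to answer to p53, and transcripts from the second promoter begin with exon 2. The level above is that of the transcript that skips the third exon, and the parts are those of the transcript that holds it. Exon 1 (117710552 to 117710758) was nearly empty, at 0.478 to 2.10 FPKM and 3 to 11 reads per library. Exon 2 (117709946 to 117710028) held 22 to 68 reads. Exon 2 in homozygous Cas9 cells was at 16.0 and 11.7 FPKM with gMock, at 17.3 and 17.6 with gLmna-1, and at 18.3 and 17.9 with gLmna-2. Exon 2 was not lower with gLmna-1 than with gMock in either mouse.

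The 11 later parts of Mdm2 did differ between the guides. With gLmna-2 they were 1.84 to 3.28 times the gLmna-1 level in mouse 1 and 1.29 to 1.90 times in mouse 2. Exon 3 (117709700 to 117709780) was at 65.4 and 56.2 FPKM with gMock, at 30.2 and 43.9 with gLmna-1, and at 59.8 and 56.6 with gLmna-2. The longest part, the 3′ end, was at 85.6 and 78.9, at 60.3 and 54.01, and at 111 and 95.8. All 11 later parts were lower with gLmna-1 than with gMock in both mice, at 0.350 to 0.704 and 0.529 to 0.781 times its level. How a read across 2 parts was counted is not given in the sources used here, and these part values carry no test.

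**Figure D4:**
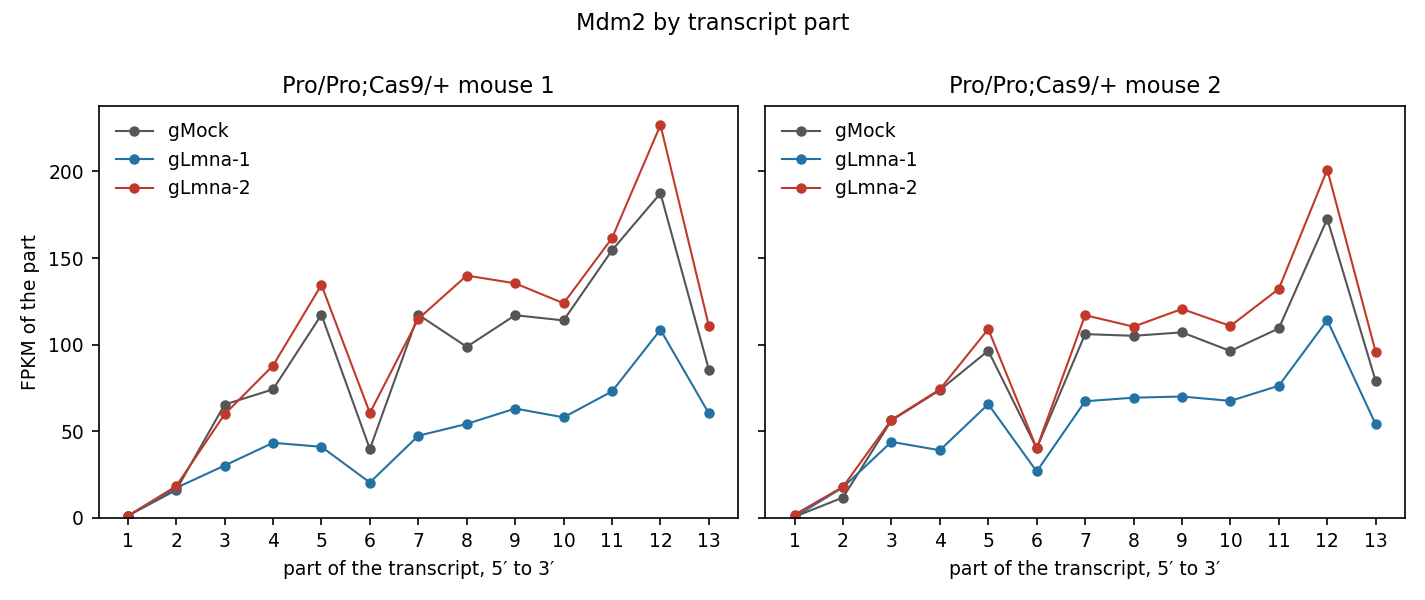
FPKM of the 13 parts of Mdm2 of at least 10 bases (5′ to 3′) in the 6 Pro/Pro;Cas9/+ libraries, 1 panel per mouse. The lines of the 3 guides meet at parts 1 and 2, and from part 3 on gLmna-1 lies below gMock and gLmna-2 in both mice.

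Ccng1, a cyclin that recruits a phosphatase to Mdm2 and is among the most regular p53 targets, had the same order of guides as Mdm2. In homozygous Cas9 cells it was at 213 and 195 FPKM with gMock, at 147 and 172 with gLmna-1, and at 274 and 243 with gLmna-2. The 3 groups did not overlap. The guides differed by 0.70 (SE 0.13, adjusted p = 0.013), with 1.87-fold in mouse 1 and 1.41-fold in mouse 2. The adjusted p became 0.12 and 0.055 without gLmna-2 of mouse 1 or of mouse 2. Without the gLmna-1 library that stood apart the difference was 0.89 (adjusted p = 0.017). Wild-type Cas9 cells had 195 and 186, 192 and 219, and 228 and 272 FPKM, a difference between guides of 0.28 (SE 0.13, adjusted p = 0.63). Against gMock the difference with gLmna-2 was 0.39 there (adjusted p = 0.48). Heterozygous cells had 193 and 150.1, 170.4 and 143, and 199 and 129 FPKM with no common order of the guides in the 2 mice.

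Promoter sequence is shown for the called members whose window holds a p53 motif. RefSeq windows of 300 bases, 250 before and 50 after the start (GRCm38.p6, the same assembly as mm10), were found for 25 of the 31 members, and none for Pmaip1, Perp, Trp53inp1, Tnfrsf10b, Zmat3 and Rrm2b, which were not searched. They were searched on both strands for a pair of p53 consensus half-sites, each of 10 bases with its central C and G kept, at most 13 bases apart and with at most 2 mismatches in all. Of all symbols with a window 4.71% held such a pair, and of the 25 members 4 did (Ccng1, Bax, Sesn1 and Ckap2). The stretches for Ccng1 (chr11:40755422-40755521, minus strand, pair with 1 mismatch) and Bax (chr7:45467039-45467139, minus strand, pair with 2 mismatches and 1 base between them) are shown because these members moved in opposite directions, with the half-sites in capitals.
Ccng1: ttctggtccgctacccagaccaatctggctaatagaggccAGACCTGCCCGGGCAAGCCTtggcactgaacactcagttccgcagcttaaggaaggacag
Bax: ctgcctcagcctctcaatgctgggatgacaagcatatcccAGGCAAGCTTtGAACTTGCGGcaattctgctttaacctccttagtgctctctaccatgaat
The pair begins 195 bases before the start of Ccng1 and 201 bases before that of Bax. A match of letters is not a bound site, and the series holds no binding data. Sequence outside these windows was not searched, so a member without a pair, Mdm2 included, may hold one elsewhere.

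The window of Sesn1 that holds a pair lies at an internal start, shown because the expression table bears on it (chr10:41887213-41887315, plus strand, pair with 2 mismatches and 3 bases between them).
Sesn1: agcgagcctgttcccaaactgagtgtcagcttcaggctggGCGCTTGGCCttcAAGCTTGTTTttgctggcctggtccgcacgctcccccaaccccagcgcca
The first exon part behind this start (41887439 to 41887493) had 0 reads in each of the 18 libraries, so at most 3 reads per library by counting error, and the next 101 bases had 30 reads over all 18. The first 2 parts of the longer Sesn1 transcript, from 41810574 on, are longer, at 447 and 278 bases against 54 and 101. They had 313 and 482 reads over all 18, not scaled to length.

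The remaining regulators did not pass in any comparison. Mdm4, the partner of Mdm2 that masks p53, was at 5.49 to 9.503 FPKM in all libraries, and its lowest value was with gLmna-2 in homozygous mouse 2. In wild-type Cas9 cells it was at −0.32 with gLmna-2 against gLmna-1 (adjusted p = 0.65). Zmat3, an RNA-binding target of p53, lay between 13.4 and 18.5 FPKM, and Cdkn2aip, a regulator of p53 stability, between 2.61 and 4.43. Of the exonic bases of Cdkn2aip 11.8% are shared with another gene model, so part of its reads may belong to that model.

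Pmaip1 encodes NOXA, a BH3-only protein that neutralises MCL1. In homozygous Cas9 cells it was at 14.87 and 14.95 FPKM with gMock, at 9.18 and 4.17 with gLmna-1, and at 32.9 and 24.3 with gLmna-2. The 3 groups did not overlap. The guides differed by 2.01 (SE 0.22, adjusted p = 0.003), with ratios of 3.59 and 5.82 in mouse 1 and mouse 2. The adjusted p stayed at most 0.037 whichever of the 6 libraries was left out, and the log2 difference was 1.63 without gLmna-1 of mouse 2. Against gMock the values were −1.13 with gLmna-1 (SE 0.22, adjusted p = 0.051) and 0.88 with gLmna-2 (SE 0.22, adjusted p = 0.16), and neither passed. Without the gLmna-1 library that stood apart the first was −0.75 (adjusted p = 0.10).

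Pmaip1 in wild-type Cas9 cells was at 17.1 and 11.9 FPKM with gMock, at 9.73 and 10.8 with gLmna-1, and at 19.8 and 22.2 with gLmna-2. The gLmna-2 libraries were above the other 4, with ratios of 2.03 and 2.06 to gLmna-1. The test gave a difference between the guides of 0.96 (SE 0.22, adjusted p = 0.33). Heterozygous cells had lower values, where Pmaip1 was at 7.68 and 5.58, at 8.59 and 5.61, and at 8.54 and 6.56, with overlapping groups.

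Perp, a membrane protein of desmosomes that p53 induces during apoptosis, was low and variable. Perp in homozygous Cas9 cells was at 3.43 and 7.17 FPKM with gMock, at 2.73 and 2.06 with gLmna-1, and at 9.86 and 12.2 with gLmna-2. Both gLmna-2 libraries were above the other 4. The guides differed by 1.83 (SE 0.33, adjusted p = 0.013), with ratios of 3.62 and 5.94. The adjusted p was 0.094 without gLmna-2 of mouse 1, 0.083 without that of mouse 2 and 0.061 without gLmna-1 of mouse 2, where the log2 difference was 1.39. Against gMock Perp was at 0.99 with gLmna-2 (SE 0.33, adjusted p = 0.30). Perp is also a gene of keratinocytes. The 6 keratinocyte markers summed to 1.13 to 2.48 FPKM over the libraries, with Krt5 and Krt14 at or near 0 in each. Of the 2 high enough to test, Trp63 passed between these guides and was lower with gLmna-2. The part of keratinocytes in the Perp values was not tested. Perp in wild-type Cas9 cells was at 5.41 and 4.06, at 2.32 and 3.24, and at 4.18 and 10.4, with a difference between guides of 1.03 (SE 0.33, adjusted p = 0.47). Heterozygous cells had 0.954 to 4.17 FPKM.

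Bax, the effector that opens the outer mitochondrial membrane, went the other way by a small amount. With the mice in order, homozygous Cas9 cells had Bax at 168 and 146 FPKM with gMock, at 196 and 159.6 with gLmna-1, and at 155 and 136 with gLmna-2. The groups with gLmna-1 and gLmna-2 did not overlap. The difference was −0.29 with gLmna-2 against gLmna-1 (SE 0.065, adjusted p = 0.028), or ratios of 0.790 and 0.849. It was at an adjusted p of 0.20 and 0.11 without gLmna-2 of mouse 1 or of mouse 2, and at −0.34 (adjusted p = 0.030) without the gLmna-1 library that stood apart. Bax was lower with gLmna-2 than with gLmna-1 in all 6 mice, and the 4 ratios outside homozygous cells were 0.933 to 0.999. Of its exonic bases 22.1% are shared with the gene model Gm45808 on the same strand, so part of its reads may belong to that model.

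Fas, the death receptor, did not pass in any comparison. Fas in homozygous Cas9 cells was at 27.4 and 13.4 FPKM with gMock, at 33.3 and 32.6 with gLmna-1, and at 26.8 and 11.5 with gLmna-2. Both gLmna-1 libraries were above the others, but the second mouse set most of the gap, with a ratio of gLmna-2 to gLmna-1 of 0.352 against 0.804 in the first. The guides differed by −0.87 (SE 0.25, adjusted p = 0.058), and gLmna-1 against gMock by 0.75 (SE 0.25, adjusted p = 0.17). The gLmna-1 library of that second mouse is the one that stood apart, and without it these 2 differences were −0.35 (adjusted p = 0.29) and 0.23 (adjusted p = 0.54).

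Of the other apoptosis genes none passed in a comparison of guides. Without the gLmna-1 library that stood apart, Trp53inp1 was at 1.04 and Eda2r at 0.76 between the guides in homozygous Cas9 cells. That fit leaves mouse 1 alone for gLmna-1. In mouse 2 the guides differed by −0.505 for Trp53inp1 and by −0.0737 for Eda2r. Ei24, a membrane protein of the endoplasmic reticulum, was at 49.5 and 44.9 FPKM with gLmna-1 and at 59.1 and 51.6 with gLmna-2 in homozygous Cas9 cells, a difference of 0.22 (SE 0.066, adjusted p = 0.063). Bbc3, which encodes PUMA, was at 4.74 to 11.3 FPKM, and its order of guides was opposite in the 2 homozygous mice. In wild-type mouse 1 Bbc3 was low with gLmna-1, at 4.79 FPKM against 10.7 (gMock) and 11.3 (gLmna-2), and in mouse 2 the corresponding values were 5.81, 4.74 and 4.79. Trp53inp1, a cofactor of p53, was at 29.7 and 30.1 FPKM with gMock and gLmna-2 in homozygous mouse 1 but at 12.2 and 12.5 in mouse 2. Apaf1, the core of the apoptosome, showed the same division, with 8.28 in both of these libraries of mouse 1 and 4.80 and 4.56 in mouse 2. Tnfrsf10b, the TRAIL receptor of the mouse, lay between 19.7 and 28.7 FPKM. In heterozygous cells Tnfrsf10b had the smallest p with either guide against gMock, −0.16 with gLmna-1 and −0.21 with gLmna-2 (SE 0.071, adjusted p = 1.0 for both). Aen, a nuclease of apoptosis (23.5 to 32.1 FPKM), Phlda3, an inhibitor of Akt (121 to 168), and Eda2r, a receptor of the TNF family (7.58 to 14.03), did not pass either.

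The arrest genes varied mostly between mice and libraries. Gdf15 was at 1.81 and 14.3 FPKM with gMock, at 1.60 and 2.39 with gLmna-1, and at 2.46 and 15.7 with gLmna-2 in homozygous Cas9 cells. Only the second mouse carried the higher values. The guides differed by 1.35 (SE 0.43, adjusted p = 0.078), and by 0.36 (adjusted p = 0.40) without the gLmna-1 library of mouse 2 that stood apart. Gdf15 in wild-type Cas9 cells was at 12.3 and 10.1, at 6.15 and 2.22, and at 12.9 and 4.97, a difference from gMock of −1.34 with gLmna-1 (SE 0.43, adjusted p = 0.45). Heterozygous cells had 0.622 to 2.52 FPKM. Gdf15 was higher with gLmna-2 than with gLmna-1 in all 6 mice, by 1.20-fold to 6.56-fold.

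Btg2 is an antiproliferative immediate early gene. It was at 64.0 and 56.8 FPKM with gMock, at 92.3 and 64.1 with gLmna-1, and at 72.6 and 103 with gLmna-2 in homozygous Cas9 cells. In wild-type Cas9 cells it was at 109 and 66.3, 88.5 and 54.2, and 132.5 and 53.2, and in heterozygous cells at 43.4 and 41.2, 104 and 28.7, and 90.1 and 66.6. Both gMock values lay below those with either guide in homozygous Cas9 cells and below those with gLmna-2 in heterozygous cells, while gLmna-1 and gLmna-2 overlapped in every genotype. The difference with gLmna-2 against gMock in heterozygous cells was 0.86 (SE 0.37, adjusted p = 1.0). Plk3, a stress-responsive polo-like kinase, was at 6.70 and 13.5, 10.3 and 5.31, and 9.36 and 17.2 FPKM in homozygous Cas9 cells, with opposite orders of gMock and gLmna-1 in the 2 mice. Plk2, its relative, was at 49.2 to 95.7 FPKM. It was at 49.8 and 67.1, 52.0 and 62.7, and 83.4 and 73.9 in heterozygous cells, a difference between the guides of 0.45 (SE 0.19, adjusted p = 1.0) and of 0.44 with gLmna-2 against gMock (SE 0.19, adjusted p = 1.0). Psrc1 (24.0 to 37.4 FPKM) and Ckap2 (3.27 to 16.4) are spindle proteins. The highest and lowest Ckap2 values were both in wild-type Cas9 cells, 16.4 with gMock of mouse 2 and 3.27 with gLmna-2 of mouse 1. The summed level of 10 proliferation genes was at 134 and 19.2 FPKM in these same 2 libraries, the highest and lowest of all 18.

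**Figure D5:**
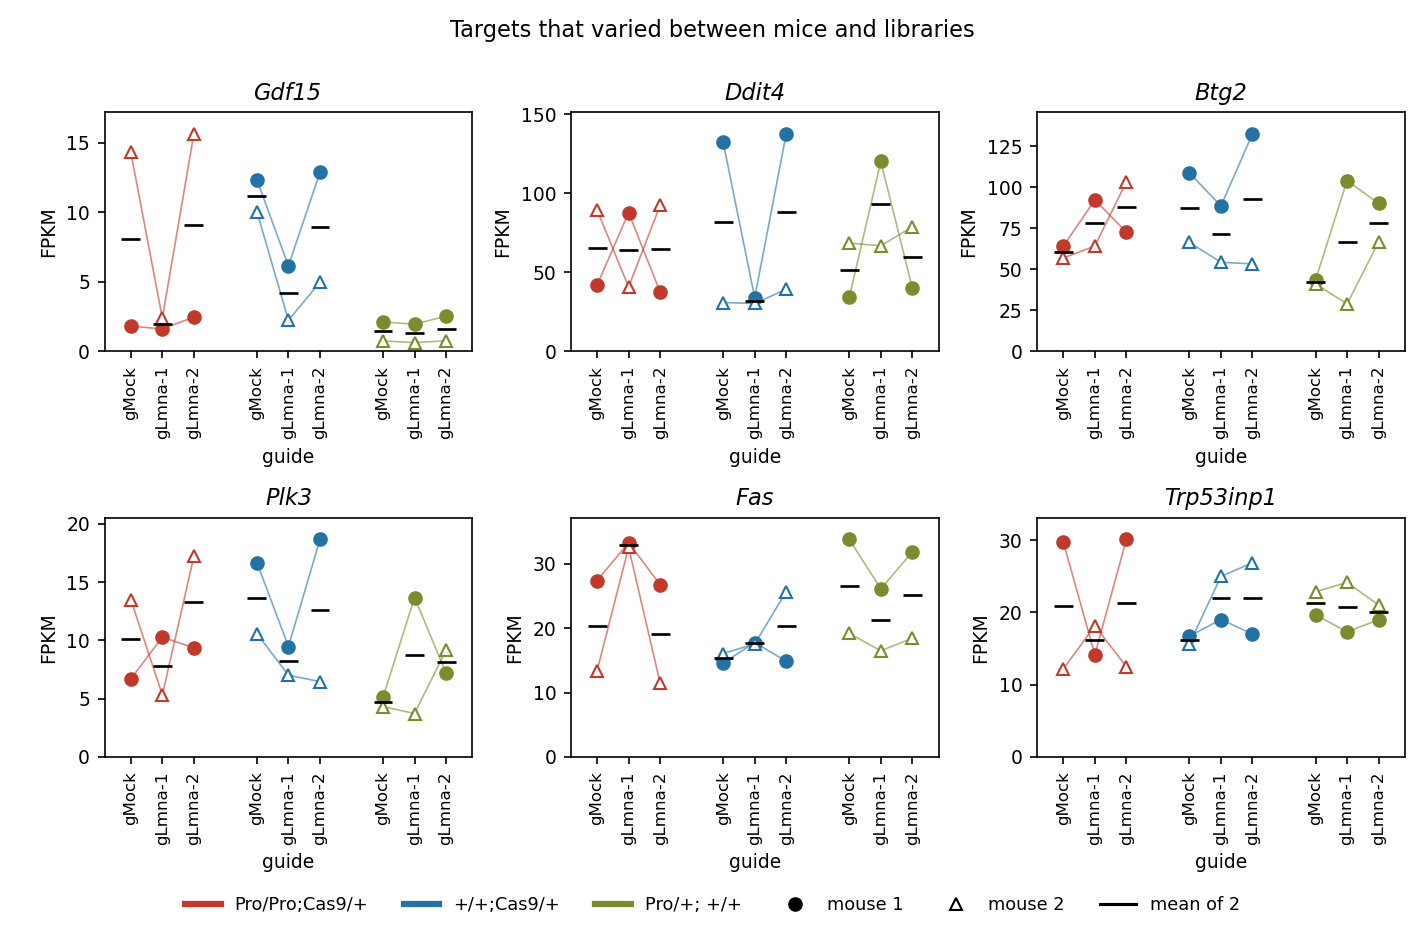
Level in FPKM (linear axis from 0) of Gdf15, Ddit4, Btg2, Plk3, Fas and Trp53inp1 in every library; points are mice, lines join the libraries of 1 mouse, and bars are means of 2 mice. In Pro/Pro;Cas9/+ cells Gdf15 reaches 14.3 and 15.7 FPKM in mouse 2 alone, and the Ddit4 lines of the 2 mice cross.

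None of the repair and metabolism genes passed in a comparison of guides. Ddit4, an inhibitor of mTORC1 signalling, was at 41.9 and 89.4 FPKM with gMock, at 87.7 and 40.7 with gLmna-1, and at 37.5 and 92.4 with gLmna-2 in homozygous Cas9 cells. The 2 mice were mirror images, and the guides differed by −0.02 (SE 0.65). In wild-type mouse 1 Ddit4 was at 132, 33.9 and 138 FPKM in the same order of guides, and in mouse 2 at 30.8, 30.2 and 39.2. In heterozygous mouse 1 it was at 34.1, 120.1 and 40.1. The gLmna-1 library of wild-type mouse 1 was also the low one of that mouse for Bbc3 and Gdf15. It was nearer to gLmna-1 of wild-type mouse 2 (0.271) than to the other libraries of its own mouse (0.321 and 0.361), and no member passed in wild-type Cas9 cells with or without it.

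Polk, a translesion polymerase, was at 16.4 and 15.7 FPKM with gMock, at 8.89 and 13.6 with gLmna-1, and at 16.95 and 13.8 with gLmna-2 in homozygous Cas9 cells, a difference between guides of 0.44 (SE 0.19, adjusted p = 0.19). Rrm2b, the ribonucleotide reductase subunit induced by p53, was at 3.03 and 3.45, 1.82 and 2.70, and 3.60 and 2.93 FPKM, a difference of 0.40 (SE 0.14, adjusted p = 0.12). The first mouse set most of both gaps, with 0.861 for Polk and 0.704 for Rrm2b, against 0.0168 and 0.0891 in mouse 2. Without the gLmna-1 library of mouse 2 that stood apart Polk was at 0.81 and Rrm2b at 0.61. That fit leaves the first mouse alone for gLmna-1. Sesn2, a sestrin of the amino acid and redox response, was at 28.2 and 22.5, 21.6 and 22.3, and 27.8 and 27.6 FPKM, a difference of 0.32 (SE 0.12, adjusted p = 0.14). Dcxr, a xylulose reductase, had the smallest p of the members with gLmna-2 against gMock in wild-type Cas9 cells. There it was at 56.1 and 53.1 FPKM with gMock, at 50.6 and 57.4 with gLmna-1, and at 65.4 and 77.3 with gLmna-2, and both gLmna-2 libraries were the highest. The difference was 0.38 from gMock (SE 0.096, adjusted p = 0.26) and 0.39 from gLmna-1 (SE 0.096, adjusted p = 0.37). Sesn1 (4.08 to 6.97 FPKM) and Ephx1 (160.0 to 234) showed no difference that passed.

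In wild-type Cas9 cells no member passed the limma test in any comparison of guides. Of all tested genes 0.691% passed with gLmna-1 and 0.564% with gLmna-2 against gMock, and 0% (0 of 12599) between the guides. In the same order 1, 3 and 4 members had an unadjusted p under 0.05, beside 8.61%, 7.56% and 8.01% of all genes. Voom called 0 members in each. The 3 members with the smallest p between the guides were Pmaip1, Dcxr and Perp. With gLmna-1 against gMock they were Gdf15, Pmaip1 at −0.44 (adjusted p = 0.61) and Perp at −0.60 (adjusted p = 0.64). With gLmna-2 they were Dcxr, Ccng1 and Pmaip1, the last at 0.52 (adjusted p = 0.65).

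In heterozygous cells without Cas9 no member and no gene passed the limma test with gLmna-1 against gMock, with gLmna-2 against gMock or between the guides (0% of 12599 in each). The members with an unadjusted p under 0.05 numbered 1, 3 and 1, beside 1.37%, 4.49% and 2.11% of all genes. Voom called 0 members in each. The smallest p with gLmna-1 belonged to Tnfrsf10b, Aen at −0.16 and Rrm2b at −0.22 (adjusted p = 1.0). Between the guides it belonged to Plk2, Psrc1 at 0.27 and Aen at 0.11 (adjusted p = 1.0).

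The difference between the guides was itself compared between genotypes. Mdm2 and Pmaip1 differed more between gLmna-2 and gLmna-1 in homozygous Cas9 cells than in heterozygous cells without Cas9, by 0.87 (SE 0.13, adjusted p = 0.024) and 1.92 (SE 0.31, adjusted p = 0.025). These were 2 of 31 members, where 2.38% of all genes passed. Perp followed with 1.76 (SE 0.47, adjusted p = 0.085). Genotype and Cas9 both differ between these groups and cannot be told apart here. These calls rested on single libraries. Neither call held without gLmna-2 of either homozygous mouse, or without any 1 of the 6 heterozygous libraries. More members passed without gLmna-1 of the first homozygous mouse, where the share of all genes is not given here. Without the gLmna-1 library that stood apart Mdm2 was at 0.97 (adjusted p = 0.033) and Pmaip1 at 1.54 (adjusted p = 0.046).

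Against wild-type Cas9 cells the same test called no member. Mdm2 had 0.66 (SE 0.13, adjusted p = 0.14), Pmaip1 1.05 (SE 0.31, adjusted p = 0.25) and Dcxr −0.46 (SE 0.14, adjusted p = 0.25), where 0.0476% of all genes passed. There 7 members had an unadjusted p under 0.05, beside 9.92% of all genes, and voom called 0. A larger response in homozygous than in wild-type Cas9 cells was thus not shown for any member. For gLmna-1 against gMock no member passed in homozygous minus wild-type cells, where 0.0317% of all genes did, or in homozygous minus heterozygous cells, where 0% did. Mdm2 had the smallest p in both, with −0.53 (SE 0.13, adjusted p = 0.39) and −0.61 (SE 0.13, adjusted p = 0.34). It was followed by Ccng1 at −0.47 (adjusted p = 0.73) and Tnfrsf10b at −0.23 (adjusted p = 0.84) in the first and by Pmaip1 at −1.21 (adjusted p = 0.35) and Fas at 1.03 (adjusted p = 0.45) in the second. For gLmna-2 against gMock no member and no gene passed in either (0%). The smallest p belonged to Dcxr at −0.19, Fas at −0.45 and Plk2 at 0.33 (adjusted p = 1.0) against wild-type cells. Against heterozygous cells it belonged to Perp at 1.19 (adjusted p = 0.58), Ccng1 at 0.42 (adjusted p = 0.63) and Pmaip1 at 0.71 (adjusted p = 0.63). In these 4 comparisons 4, 3, 0 and 3 members had an unadjusted p under 0.05, beside 5.75%, 8.64%, 3.51% and 7.74% of all genes. Voom called 0 members in each.

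Genotypes were compared with gMock alone, in 6 libraries. No member passed the limma test. Of all genes 0.397% passed for homozygous against wild-type Cas9 cells, 0% for homozygous Cas9 against heterozygous cells and 0.413% for heterozygous against wild-type Cas9 cells. In that order 0, 3 and 7 members had an unadjusted p under 0.05, beside 10.4%, 4.34% and 12.5% of all genes. Voom called 0 members in each. Mdm2 was at 0.06 in homozygous against wild-type Cas9 cells (SE 0.21, adjusted p = 1.0), and Cdkn2aip at 0.30, Btg2 at −0.49 and Sesn1 at 0.25 had the smallest p (adjusted p = 0.54, 0.60 and 0.67). In heterozygous cells Pmaip1 was at −1.02 (SE 0.21, adjusted p = 0.17), Btg2 at −0.99 (SE 0.23, adjusted p = 0.21) and Plk3 at −1.33 (SE 0.34, adjusted p = 0.24) against wild-type Cas9 cells. Their 6 arrest genes had a median of −0.73 against wild-type Cas9 cells, beside −0.01 over all genes. Against heterozygous cells the homozygous Cas9 cells had Pmaip1 at 1.07 (SE 0.21), Mdm2 at 0.68 (SE 0.21) and Plk3 at 0.89 (SE 0.34), with an adjusted p of 0.97 for each. Of the 7 macrophage markers all were positive in homozygous Cas9 against wild-type Cas9 cells (median 1.94, 7 at an unadjusted p under 0.05, 0 passing) and against heterozygous cells (median 1.84, 6 at an unadjusted p under 0.05, 0 passing). Their part in the members' values was not tested.

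Of 20 further p53 pathway genes 17 were tested, and 0 passed in each of the 18 comparisons. Their median between the guides in homozygous Cas9 cells was 0.05, beside 0.06 over all genes. An unadjusted p under 0.05 was found there for 2 of them, beside 25.2% of all genes. Cdkn1a, which encodes the arrest protein p21, was at 221 to 386 FPKM and differed between the guides by 0.15 in homozygous Cas9 cells (SE 0.14, adjusted p = 0.57). Of 10 upstream kinases and partners such as Atm and Chek2 0 passed in any comparison, with a median between the guides of 0.14 in these cells.

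Other lists were read beside the difference between the guides in homozygous Cas9 cells. All 10 proliferation genes were negative, with a median of −0.41 and 0 passing, and their summed level was at 67.4 and 64.6 FPKM with gLmna-1 and at 43.3 and 47.8 with gLmna-2. The 10 integrated stress response genes had a median of −0.03 and 0 passing. All 7 macrophage markers were positive, with a median of 0.59 and 0 passing. Their summed level was at 568 and 709.8 FPKM with gMock, at 446 and 1137 with gLmna-1, and at 1487 and 786 with gLmna-2. From gLmna-1 to gLmna-2 that sum rose in mouse 1 and fell in mouse 2, whose gLmna-1 library is the one that stood apart. Of the 8 fibroblast markers 2 fell, Col1a1 at −0.80 (adjusted p = 0.029) and Col3a1 at −1.37 (adjusted p = 0.022). Trp63, a keratinocyte marker, fell by 0.60 (adjusted p = 0.038) and Des, a muscle marker, rose by 0.86 (adjusted p = 0.020). Both are low, in lists that summed to 1.13 to 2.48 FPKM for keratinocyte and 0.150 to 1.62 FPKM for muscle markers over the 18 libraries. Endothelial markers summed to 0.342 to 2.26 FPKM, with none high enough to test, and pigment and Schwann cell markers to 1.35 to 18.03 FPKM, with 3 tested. Between the guides in homozygous Cas9 cells all 3 were positive, with a median of 0.60, 0 passing and 3 at an unadjusted p under 0.05. Of all genes 25.2% had such a p. The sum of the list was at 3.53 and 11.06 FPKM with gLmna-1 and at 6.91 and 18.03 with gLmna-2. The part of proliferation, of the macrophage, pigment and Schwann cell markers and of the collagens in the members' difference was not tested.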

How the data were processed

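RNA was measured in 18 libraries from 6 mice. The submitters' processing notes list FastQC 0.11.2, STAR 2.4.0k, HOMER and the mm10 build. The FPKM values were made by the authors over exons, per the file headers, and each exonic part has a row of its own. Part lengths in bases, the other unit used, come from the deposited table. Whether strand was used is not given in the sources used here. Of 24 library columns 6 match no labelled sample and were not used. The 404759 parts were combined by length into 36795 transcripts, named from RefSeq (36474) and GENCODE (194), and 127 stayed without a symbol. For each symbol the transcript with the highest mean was used. All values tested were whole multiples of 1 step within a tolerance of 0.05, which gave the reads per library. A step may be a read or a fragment.

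Tests used lmFit and trended eBayes of limma 3.58.1 (R 4.3.3) on log2(FPKM + 1), which understates changes of low genes, for the 12599 symbols that reached 1 FPKM or more in 2 or more libraries. Comparisons of guides, and of guide effects across genotypes, used the 18 libraries together, with a block term for each mouse (6 residual degrees of freedom), and genotypes on the 6 gMock libraries (3). P-values were adjusted by Benjamini-Hochberg over all symbols, with 0.05 as the threshold, and rest on 2 mice per genotype. The labels name the mouse of each library, which is the pairing. Within-mouse correlations of deviations from group means were −0.02 to 0.78 in homozygous Cas9, 0.18 to 0.59 in wild-type Cas9 and 0.47 to 0.73 in heterozygous cells. The fits were tested on simulated data. Tables were made with pandas 2.3.3 in Python 3.11.15 and figures with matplotlib 3.10.9.

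The members, roles and lists (other p53 pathway genes, upstream kinases, proliferation, integrated stress response, and markers of fibroblasts, macrophages, keratinocytes, endothelium, skeletal muscle, and pigment and Schwann cells) were chosen with earlier results of these data known. By rule, all 31 members are accounted for. Members that passed get values per library. Where fewer than 3 passed, the 3 with the smallest p are given, and Trp53 and Mdm2 always. Further members, Ifi202b, Cdkn1a and single marker genes are named outside this rule, after their values were seen. The parts of Mdm2, Trp53 and Sesn1 are described without a test.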

Additional observations from a re-analysis of the deposited data

Results flagged for a closer look

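For Mdm2 and Pmaip1 the difference between gLmna-2 and gLmna-1 was larger in homozygous Cas9 cells than in heterozygous cells without Cas9. Homozygous minus heterozygous, that difference was 0.873 for Mdm2 (adjusted p = 0.024) and 1.92 for Pmaip1 (adjusted p = 0.025) on the log2 scale. The test was of the difference itself, in limma, and 2.38% of all genes passed it. Genotype and Cas9 both differ between homozygous and heterozygous cells and cannot be told apart here. Against wild-type Cas9 cells the same test called neither gene. Mdm2 was higher with gLmna-2 in 2 of 2 homozygous mice by 2.04-fold and 1.74-fold, and at 1.04-fold and 1.00-fold in the heterozygous mice. Pmaip1 was at 3.59-fold and 5.82-fold in the homozygous mice and at 0.993-fold and 1.17-fold in the heterozygous mice. Over the 12 fits that each left out 1 library the value was 0.777 to 0.969 for Mdm2 (adjusted p = 0.0067 to 0.17) and 1.54 to 2.30 for Pmaip1 (adjusted p = 0.0017 to 0.17).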

How the results depend on the processing

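The values are the numbers of members that passed. The mouse pairs the libraries by the labels, and without the replicate block the counts were 0 for gLmna-1 against gMock and 1 (Pmaip1) between the guides in homozygous Cas9 cells, and 0 for the difference between the guides in homozygous minus heterozygous cells, in place of 1, 5 and 2. Leaving out the block changed no other count of members. Fitted only on the libraries of the genotypes compared, these 3 counts were 0, 0 and 0, and Mdm2 and Pmaip1 between the guides had an adjusted p of 0.19. That fit has fewer libraries and residual degrees of freedom. Without the filter on low values the first count was 0 and the third 1. With limma voom on the recovered reads the first was 2, beside 198 of all 12599 tested genes. With 1 library left out at a time, gLmna-1 against gMock gave 0 to 4, gLmna-2 against gMock 0 to 1, the guides against each other 2 to 8 in homozygous Cas9 cells. The same fits gave 0 to 5 for the difference between the guides in homozygous minus heterozygous cells, 0 to 2 in homozygous minus wild-type Cas9 cells and 0 to 3 for gLmna-1 against gMock in homozygous minus heterozygous cells. Between the guides Mdm2 and Pmaip1 alone still passed without gLmna-2 of either homozygous mouse, and more members passed without gLmna-1 of either. How many of all tested genes passed in each fit with 1 library left out is not given here, so these counts are not a result about the members. No direction of a called member turned in any alternative run, and other scalings, a pseudocount of 0.1 and the mean over transcripts moved no count by over 1.5 times. Rescaling by median ratios moved the median log2 difference of all genes by −0.0668 to 0.0423. A fit that leaves out 1 library rests on a single mouse for that group. With 2 mice per group, a p that misses the threshold does not show that members were equal.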
